A study of Mus musculus with 10 samples.

Results

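Proliferation genes were followed in 10 mouse tumors whose RNA was hybridised, 1 tumor an array, to 2-colour Agilent mouse arrays. The set held 43 genes taken for their known function, of 19251 named genes with a probe in the deposited table. Of these, 16 act in DNA replication and 27 in mitosis, and all 43 had a probe. A gene with several probes was represented by the one with the highest mean red signal over all arrays, and every chosen probe was well above background in red on 10 of 10 arrays and saturated on none. Probes were matched by the gene name in the scanner files, where Cdk1 appears under its older name Cdc2a.

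The question behind the series was which genes distinguish metastatic sarcomatoid (spindle cell) carcinomas from adenocarcinomas. The 5 adenocarcinomas (tumors 105, 131, 470, 17 and 85) were primary mammary tumors, all with the alleles Pik3ca H1047R and Trp53 R270H under MMTV-Cre. The sarcomatoid group held 3 mammary tumors (323, 307 and 594) and 2 lung tumors that carry the numbers 323 and 307, so its 5 arrays stand for 3 tumor origins. The labels call all arrays of 323 and 307 sarcomatoid adenocarcinoma and tumor 594 sarcomatoid carcinoma. Per the study's methods each lung tumor grew after tail vein injection of a cell line made from the matching mammary tumor. The same methods give the mammary sarcomatoid tumors 3 genotypes, Pik3ca H1047R;Trp53 R270H;MMTV-Cre, Pik3ca H1047R;MMTV-Cre with a spontaneous Trp53 R245H mutation, and Trp53 R270H;MMTV-Cre. The labels do not say which of tumors 323 and 307 has which genotype, and tumor 594, which has no lung partner, is by elimination the Trp53 R270H;MMTV-Cre tumor. MMTV-Cre, a recombinase under the promoter of mouse mammary tumor virus, switches the alleles on mainly in mammary epithelium, and compound mutants were bred on C57BL/6. Ages were not given in the sources used here, and each lung tumor derives from 1 cell line.

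Cells that divide copy their DNA in S phase and separate it in mitosis, and each step has its own set of genes. Before S phase, Cdc6 and Cdt1 load the Mcm helicase onto origins, and E2F factors switch on these and other replication genes. Before mitosis, the B-Myb and Foxm1 factors bound to a protein complex on CHR elements switch on cyclin B, Cdk1, Plk1 and their partners. Cyclin B is degraded again through Cdc20 and Ube2c as the cell leaves mitosis. Both sets are nearly silent in resting cells, and their joint level in a tissue is widely used as a measure of proliferation. In RNA from whole tumors, fewer dividing cells and less RNA of these genes per cell cannot be told apart.

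The promoters of both sets carried different short motifs. Promoter sequence (250 bases before to 50 after the start) came from RefSeq on GRCm38.p6 and was given for 35 of the 43 genes, 22 mitosis and 13 replication genes. The CHR element, searched as TTTGAA or TTTAAA on both strands, was present in 19 of 22 mitosis promoters (86.4%) and in 4 of 13 replication promoters (30.8%), against 30.6% of 27025 genes. An E2F site, searched as TTTGGCGC, TTTCGCGC or TTTCCCGC on both strands, was present in 6 of 13 replication promoters (46.2%) and in 1 of 22 mitosis promoters (4.55%), against 2.12% of genes. The CCAAT box was found in 19 of 22 mitosis promoters (86.4%), 8 of 13 replication promoters (61.5%) and 41.1% of genes. Among genes of the same functions outside the set, 28 of 45 mitosis promoters (62.2%) held a CHR element and 10 of 30 replication promoters (33.3%) an E2F site. A gene with several starts was counted once if any of its windows held the motif. TTTAAA is its own reverse complement, and TTTGGCGC and TTTCGCGC can overlap on opposite strands, as they do in Mcm5 and Mcm6.

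The sequences of 5 mitosis genes show the spacing of CHR and CCAAT motifs, and those of 3 replication genes show E2F sites. Each line gives the 160 bases before the start, 5′ to 3′ in the direction of the gene on GRCm38.p6, with the searched motifs in capitals.
Cdk1, chr10:69352913-69353072 (- strand): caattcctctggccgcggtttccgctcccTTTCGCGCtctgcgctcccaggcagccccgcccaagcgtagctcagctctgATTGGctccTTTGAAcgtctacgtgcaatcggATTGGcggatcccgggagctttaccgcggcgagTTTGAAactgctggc
Ccnb1, chr13:100786487-100786646 (- strand): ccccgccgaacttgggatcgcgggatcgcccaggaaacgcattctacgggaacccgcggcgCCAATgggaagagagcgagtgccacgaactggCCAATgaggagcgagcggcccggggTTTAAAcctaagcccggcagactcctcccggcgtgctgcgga
Plk1, chr7:122159275-122159434 (+ strand): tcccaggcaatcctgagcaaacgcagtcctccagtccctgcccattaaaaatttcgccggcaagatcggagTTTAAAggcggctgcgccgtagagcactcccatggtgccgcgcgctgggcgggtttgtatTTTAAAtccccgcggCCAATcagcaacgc
Cdc20, chr4:118437344-118437503 (- strand): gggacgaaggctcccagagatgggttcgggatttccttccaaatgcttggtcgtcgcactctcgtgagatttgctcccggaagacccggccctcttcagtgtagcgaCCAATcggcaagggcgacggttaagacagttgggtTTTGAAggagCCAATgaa
Ube2c, chr2:164769769-164769928 (+ strand): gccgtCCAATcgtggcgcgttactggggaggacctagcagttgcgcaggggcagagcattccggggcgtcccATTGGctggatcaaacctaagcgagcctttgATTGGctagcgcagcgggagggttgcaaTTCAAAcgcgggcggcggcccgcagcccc
Mcm5, chr8:75109349-75109508 (+ strand): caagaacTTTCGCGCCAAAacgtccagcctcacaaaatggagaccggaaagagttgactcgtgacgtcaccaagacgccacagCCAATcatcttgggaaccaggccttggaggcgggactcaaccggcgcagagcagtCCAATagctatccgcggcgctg
Mcm6, chr1:128359706-128359865 (- strand): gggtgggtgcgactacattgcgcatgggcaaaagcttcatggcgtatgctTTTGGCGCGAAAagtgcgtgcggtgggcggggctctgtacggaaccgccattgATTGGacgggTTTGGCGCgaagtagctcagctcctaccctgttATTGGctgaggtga
Cdc6, chr11:98907991-98908150 (+ strand): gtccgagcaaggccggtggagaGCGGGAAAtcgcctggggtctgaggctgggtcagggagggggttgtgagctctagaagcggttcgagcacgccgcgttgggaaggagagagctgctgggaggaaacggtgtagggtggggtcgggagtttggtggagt
In these 160 bases Cdk1 had 2 CHR elements, 2 CCAAT boxes and 1 E2F site, and Ube2c had 1 CHR element and 3 CCAAT boxes. Mcm6 had 3 E2F sites with 2 CCAAT boxes and no CHR element. A match describes the letters only and is not a measured binding site.

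Before any result, 4 properties of the arrays bear on the values. Each value is the log2 ratio of a tumor to the reference, as the authors' table gives it. The labels name Cy3, the green dye, for the tumor, but the green signals varied less between arrays than the red (mean SD of log2 signal 0.737 against 0.975), so the tumor was likely in red, and red was read as the tumor. Read so, 14 of 14 epithelial markers had a negative log2 difference, sarcomatoid minus adenocarcinoma (median -2.29, 0 past the threshold). If the label is right, every log2 ratio and log2 difference below changes sign, while SDs and correlations between genes stay as they are. The file headers name 3 protocols, each with its own version of Feature Extraction, the software that reads the scans. Arrays that share a protocol are called a scan batch here, and no scan date was used. Mammary tumor 323 was alone in the first batch. Tumors 307, 594, 105 and 470 were in the second, and both lung tumors with 131, 17 and 85 in the third. Tumor 85 had the lowest share of probes well above background in red (52.2%), while the other arrays had 65.8% to 83.0%. The mean of 14 epithelial markers was 2.99 to 3.32 in 4 adenocarcinomas and -1.26 in tumor 470, which thus goes against its label, 0.98 to 1.47 in the mammary sarcomatoid tumors, and at -1.72 (323) and -2.15 (307) in the lung. The mean of 8 lung epithelium markers was 0.35 and 0.90 in the lung tumors and -0.08 to 1.01 in the mammary tumors.

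Proliferation genes differed more among the adenocarcinomas than between the tumor types. The mean of the 27 mitosis genes was -1.20, -0.92 and -0.81 in mammary sarcomatoid tumors 323, 307 and 594, -0.58 and -1.07 in lung tumors 323 and 307, and -1.23, -1.66, -1.31, -0.44 and -0.09 in adenocarcinomas 105, 131, 470, 17 and 85. The highest and the lowest of the 10 tumors were thus both adenocarcinomas, 85 and 131, and all 5 sarcomatoid tumors lay between them. The mean of the 16 replication genes was -1.08, -0.70 and -0.48 in the mammary sarcomatoid tumors in the same order, -0.44 and -0.82 in lung tumors 323 and 307, and -1.02, -1.61, -0.98, -0.62 and -0.46 in the adenocarcinomas. Lung tumor 323, tumor 85 and tumor 594 were the highest in replication genes and close to each other, and tumor 131 was again the lowest. Under all 3 scalings of the scanner files (loess, median centring alone, and loess without background correction) the highest was tumor 594, at -0.37, 0.44 and -0.36. The group means were -0.92 ± 0.24 and -0.94 ± 0.65 for mitosis genes and -0.70 ± 0.26 and -0.94 ± 0.44 for replication genes in sarcomatoid tumors and adenocarcinomas (SD, n = 5 each). Over all probes, the median SD among adenocarcinomas (0.54) was also larger than the median absolute difference between the groups (0.291). A spread larger than the group difference was thus not particular to proliferation genes.

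**Figure D1:**
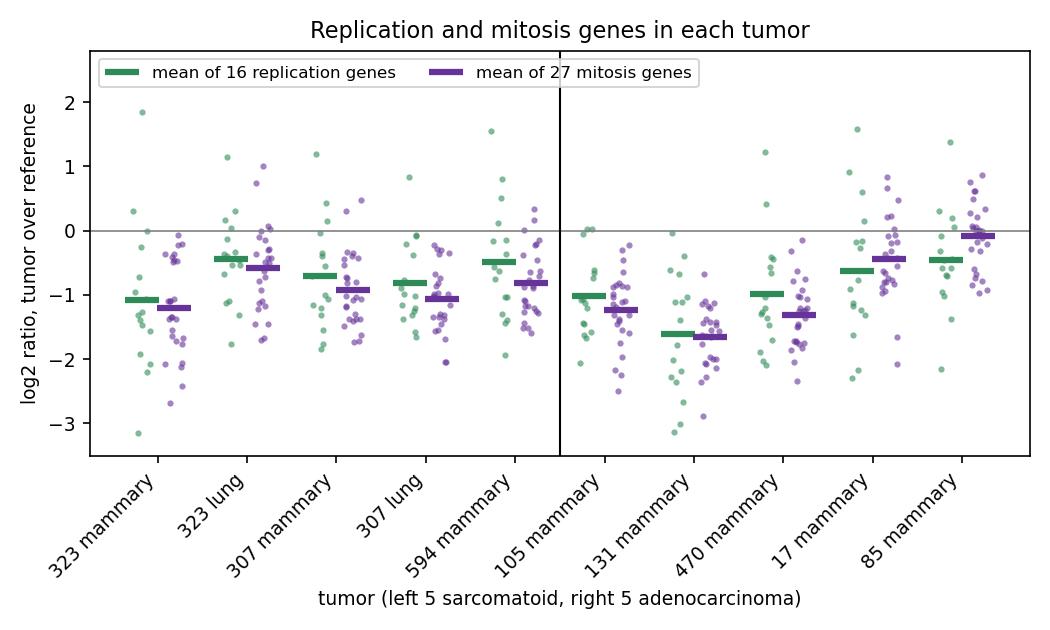
Log2 ratio of tumor over reference (vertical axis) of each proliferation gene (points) in each of 10 tumors (horizontal axis), with bars at the mean of the 16 replication genes and of the 27 mitosis genes. Adenocarcinomas 131 and 85 are the lowest (-1.66) and the highest (-0.09) in mitosis genes, and the 5 sarcomatoid tumors lie between them.

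In the plot of means by tumor, the mitosis genes lay below the replication genes in 8 of 10 tumors. The mitosis mean minus the replication mean was -0.33 to -0.04 in these 8 tumors. It was 0.18 in tumor 17 and 0.37 in tumor 85, the adenocarcinomas with the highest mitosis means. Tumor 85 was the highest of the 10 tumors for 17 of 27 mitosis genes and for 1 of 16 replication genes. Its median rank from the highest was 1 in mitosis genes and 3 in replication genes. Tumor 131 was the lowest for 13 mitosis and 6 replication genes. Beside these orders, the share of probes well above background had r = -0.58 with the mitosis mean and r = -0.22 with the replication mean over 10 tumors, and its part in them was not tested.

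Most members were below the reference in the deposited table. Of 430 values, 377 (87.7%) were below 0, against 48.8% of all values in the table, and 22 of 43 genes (51.2%) were below 0 in all 10 tumors, against 9.92% of probes. The lowest values belonged to Cdt1, which loads the helicase, at -3.15 in mammary tumor 323 and -3.13 in tumor 131. Ccne2, a cyclin of the G1/S transition, reached the highest values, with 8 of 10 tumors above 0 and up to 1.84. The level against the reference depended on the scaling. With loess on the scanner files 369 of 430 values were below 0, but with median centring alone 236 were (54.9%), against 50.2% of all values. With median centring, 2 of 43 genes were below 0 in all 10 tumors, against 7640 of 41174 probes, so the excess over all probes was not kept there. Values below are those of the deposited table, and whether a single value lies above or below 0 depends on that scaling. Under all 3 scalings of the scanner files, tumors 85 and 17 were the highest in mitosis genes, and tumor 131 was the lowest except with median centring, where mammary tumor 323 was level with it (-0.76 each).

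**Figure D2:**
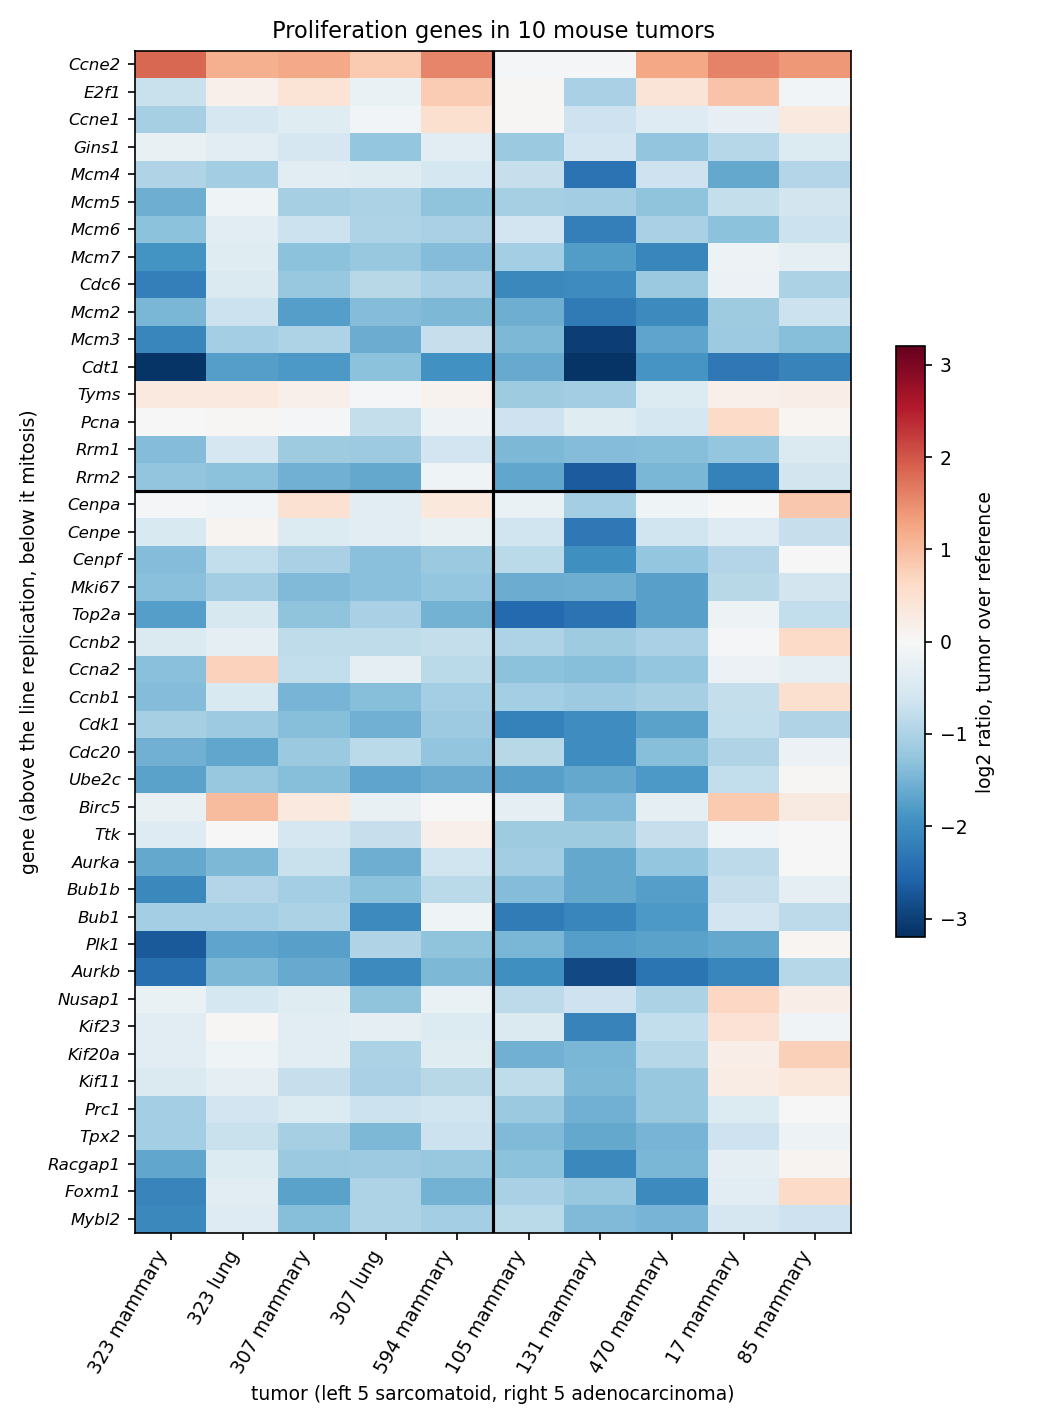
Log2 ratio of tumor over reference (colour) of the 43 proliferation genes (rows, replication above the line and mitosis below) in 10 tumors (columns). Tumor 131 is blue in most rows, while tumors 17 and 85 are pale or red in most mitosis rows. Ccne2 is red in 8 of 10 columns.

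The spread among adenocarcinomas was larger than among sarcomatoid tumors for 25 of 27 mitosis genes (92.6%) and 12 of 16 replication genes (75.0%), against 55.1% of all probes. The median SD of a mitosis gene was 0.72 in adenocarcinomas and 0.37 in sarcomatoid tumors, against 0.54 and 0.50 over all probes. No test was made of this difference. The sarcomatoid group holds 2 pairs of related tumors, and what that adds to the likeness within it was not tested. The count moved with single tumors, which were chosen after their values were seen. For mitosis genes it was 20 of 27 without tumor 85 (53.0% of probes) and 24 without 131 (50.7% of probes). It was 17 without 85 and 131 (44.9% of probes) and 9 without 85 and 17 (47.4% of probes). For replication genes it was 10 of 16 without 85, 9 without 131, 7 without 85 and 131 and 8 without 85 and 17. These replication counts lay near the shares of probes with the same tumors left out.

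No proliferation gene passed the threshold between sarcomatoid tumors and adenocarcinomas. In limma's fit over 40196 probes with 5 tumors per group, 0 of 43 members and 0% of probes passed at an adjusted p of 0.05. Without adjustment, 0 members and 9.23% of probes (3709) had a p below 0.05. The groups did not overlap for 0 members, against 1.33% of probes. Sarcomatoid minus adenocarcinoma, the median log2 difference was 0.21 over replication genes, with 13 of 16 positive, and -0.02 over mitosis genes, with 13 of 27 positive. Over all probes it was -0.002, with 49.8% positive. The replication median was 0.03 without tumor 131 and 0.39 without 85, and the mitosis median was -0.14 to 0.18 when each array was left out. Within the second scan batch, which compares tumors 307 and 594 with 105 and 470, the replication and the mitosis means each differed by 0.41, and 13 of 16 and 22 of 27 genes were positive. Within the third batch, which compares the lung tumors with 131, 17 and 85, the differences were 0.27 and -0.10, with 12 of 16 and 8 of 27 positive. The mitosis genes thus had opposite signs in the 2 batches. Without tumor 470, 618 of all probes passed (340 higher and 278 lower in sarcomatoid tumors) but still 0 members, with medians of 0.19 and -0.14.

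**Figure D3:**
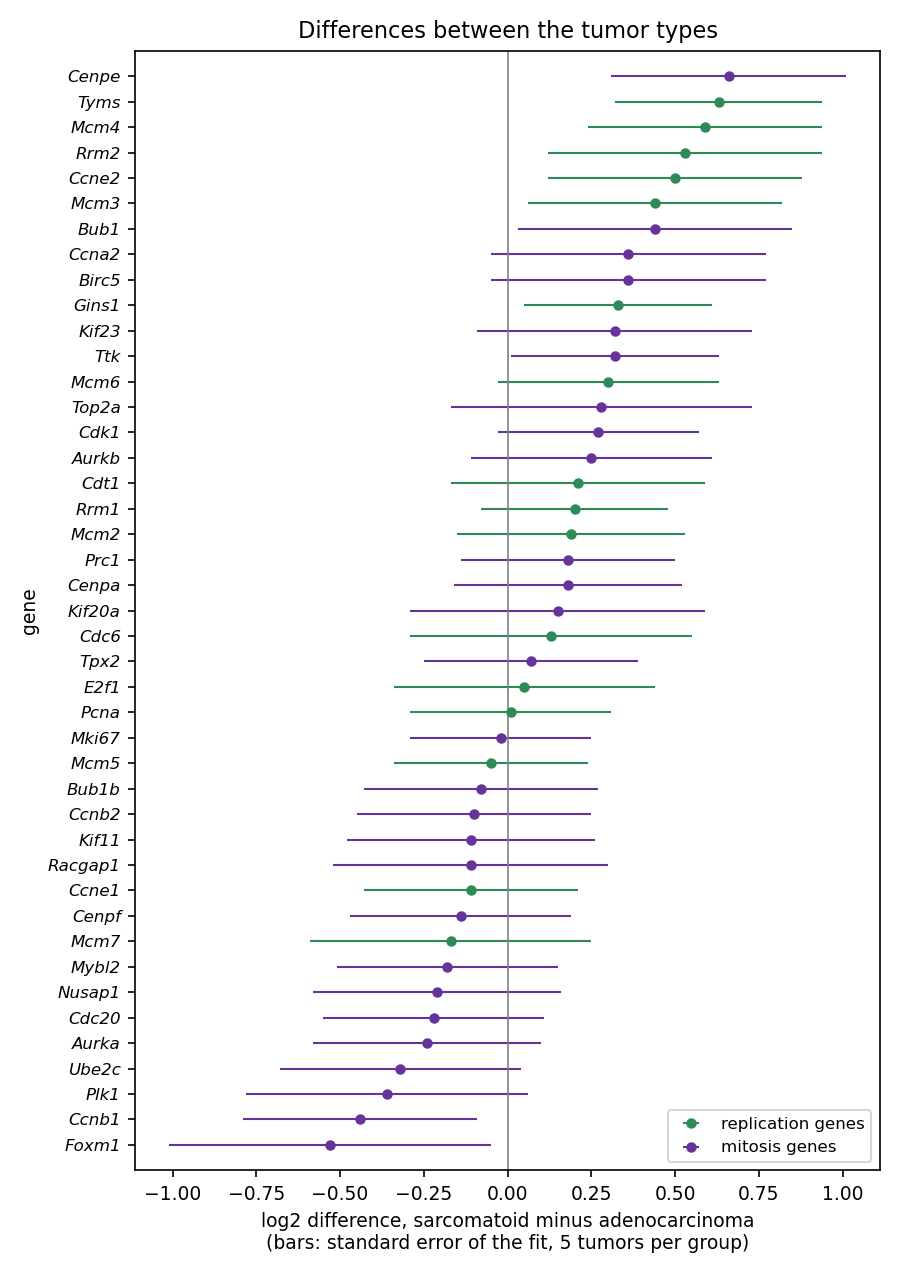
Log2 difference, sarcomatoid minus adenocarcinoma (horizontal axis), of each of 43 proliferation genes (vertical axis) with its standard error from limma's fit, 5 tumors per group. Differences run from -0.53 (Foxm1) to 0.66 (Cenpe), and no gene passed the threshold.

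Among the 9 genes of helicase loading and the helicase itself, differences ran from -0.17 (Mcm7) to 0.59 (Mcm4), and 7 were positive. Mcm6, a helicase subunit with the brightest probe of this role, had log2 ratios of -1.32, -0.70 and -1.03 in the mammary sarcomatoid tumors 323, 307 and 594, -0.33 and -0.98 in lung tumors 323 and 307, and -0.61, -2.19, -1.04, -1.31 and -0.70 in adenocarcinomas 105, 131, 470, 17 and 85. Tumor 131 was lowest and lung tumor 323 highest, and the groups overlapped. The difference was 0.30 (SE 0.33, adjusted p = 0.835), and 0.04 without tumor 131. Mcm4, another subunit, had values of -0.96, -0.34 and -0.57 in the mammary sarcomatoid tumors 323, 307 and 594, -1.12 and -0.38 in lung tumors 323 and 307, and -0.74, -2.36, -0.66, -1.63 and -0.95 in adenocarcinomas 105, 131, 470, 17 and 85. Tumors 131 and 17 were the lowest, and the 3 other adenocarcinomas lay inside the sarcomatoid range. Its difference was 0.59 (SE 0.35, adjusted p = 0.642), from -0.68 ± 0.35 in sarcomatoid tumors and -1.27 ± 0.72 in adenocarcinomas (SD, n = 5 each), and without tumor 131 it was 0.32. The other subunits differed by 0.19 (Mcm2), 0.44 (Mcm3) and -0.05 (Mcm5). The loaders Cdc6 and Cdt1 differed by 0.13 and 0.21, and Gins1, part of the active helicase, by 0.33.

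Of the 4 genes of DNA synthesis and nucleotide supply, 0 passed the threshold. Pcna, the sliding clamp of DNA polymerase, was measured at -0.01, -0.03 and -0.16 in the mammary sarcomatoid tumors 323, 307 and 594, 0.04 and -0.76 in lung tumors 323 and 307, and -0.66, -0.40, -0.57, 0.60 and 0.05 in adenocarcinomas 105, 131, 470, 17 and 85. Lung tumor 307 was the lowest and tumor 17 the highest, with a difference of 0.01 (SE 0.30, adjusted p = 0.995) that was -0.10 to 0.21 when each array was left out. Tyms, which makes thymidylate for DNA (probe at chr5:29093977-29094036, build mm7 per the file headers), had the smallest adjusted p of the 43 genes. Its values were 0.30, 0.15 and 0.12 in the mammary sarcomatoid tumors 323, 307 and 594, 0.30 and -0.06 in lung tumors 323 and 307, and -1.13, -1.11, -0.44, 0.15 and 0.20 in adenocarcinomas 105, 131, 470, 17 and 85. The 5 sarcomatoid tumors and adenocarcinomas 17 and 85 lay between -0.06 and 0.30, and only 105, 131 and 470 were lower. The difference was 0.63 (SE 0.31, adjusted p = 0.568), or 1.54-fold, from 0.16 ± 0.15 in sarcomatoid tumors and -0.46 ± 0.65 in adenocarcinomas (SD, n = 5 each). The ribonucleotide reductase subunits Rrm1 and Rrm2 differed by 0.20 and 0.53.

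Of the 3 regulators of the G1/S transition, the brightest was Ccne1, a cyclin that drives entry into S phase. It was at -1.06, -0.40 and 0.51 in the mammary sarcomatoid tumors 323, 307 and 594, -0.54 and -0.09 in lung tumors 323 and 307, and 0.03, -0.67, -0.41, -0.27 and 0.31 in adenocarcinomas 105, 131, 470, 17 and 85. Mammary tumors 323 and 594, both sarcomatoid, were its lowest and its highest, and the difference was -0.11 (SE 0.32, adjusted p = 0.945), from -0.32 without tumor 594 to 0.07 without mammary tumor 323. Its close relative Ccne2 showed 1.84, 1.20 and 1.55 in the mammary sarcomatoid tumors 323, 307 and 594, 1.15 and 0.83 in lung tumors 323 and 307, and -0.05, -0.04, 1.23, 1.58 and 1.38 in adenocarcinomas 105, 131, 470, 17 and 85. Adenocarcinomas 105 and 131 were the lowest and all others were at 0.83 or above, with a difference of 0.50 (SE 0.38, adjusted p = 0.736). It was 0.28 without 105, 0.28 without 131 and 0.20 with median centring. E2f1, the gene of an E2F factor, differed by 0.05.

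Turning to mitosis, the 4 genes of the cyclins and their kinase were split in sign. Ccnb2, a mitotic cyclin, had log2 ratios of -0.47, -0.81 and -0.76 in the mammary sarcomatoid tumors 323, 307 and 594, -0.29 and -0.81 in lung tumors 323 and 307, and -0.99, -1.14, -1.03, -0.07 and 0.61 in adenocarcinomas 105, 131, 470, 17 and 85. Tumor 85 was the highest, tumor 17 came next, and the difference was -0.10 (SE 0.35, adjusted p = 0.954) and 0.18 without tumor 85. Ccnb1, its close relative, was at -1.38, -1.49 and -1.10 in the mammary sarcomatoid tumors 323, 307 and 594, -0.48 and -1.37 in lung tumors 323 and 307, and -1.09, -1.17, -1.06, -0.76 and 0.50 in adenocarcinomas 105, 131, 470, 17 and 85. Tumor 85 stood far above the other 9 tumors, and the difference was -0.44 (SE 0.35, adjusted p = 0.748) with it and -0.14 without it. Cdk1, the kinase both cyclins activate, differed by 0.27 and Ccna2, the cyclin of S and G2 phase, by 0.36.

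The 7 mitotic kinases and checkpoint genes ran from -0.36 to 0.44. Birc5 (survivin), a member of the chromosomal passenger complex and an inhibitor of apoptosis, was the brightest, with -0.23, 0.30 and 0.01 in the mammary sarcomatoid tumors 323, 307 and 594, 1.0 and -0.23 in lung tumors 323 and 307, and -0.30, -1.42, -0.32, 0.83 and 0.28 in adenocarcinomas 105, 131, 470, 17 and 85. Lung tumor 323 and tumor 17 were the highest and tumor 131 the lowest, and the difference was 0.36 (SE 0.41, adjusted p = 0.841), and 0.05 without tumor 131. Bub1, a spindle checkpoint kinase, had -1.10, -1.02 and -0.15 in the mammary sarcomatoid tumors 323, 307 and 594, -1.09 and -2.05 in lung tumors 323 and 307, and -2.25, -2.08, -1.83, -0.62 and -0.85 in adenocarcinomas 105, 131, 470, 17 and 85. Tumor 594 was its highest, while lung tumor 307 stood with adenocarcinomas 105, 131 and 470 at the low end, and the difference was 0.44 (SE 0.41, adjusted p = 0.791), from 0.21 without tumor 594 to 0.68 without lung tumor 307. The kinases Plk1, Aurka and Aurkb differed by -0.36, -0.24 and 0.25, and the checkpoint genes Bub1b and Ttk by -0.08 and 0.32.

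Both genes of the exit from mitosis had negative differences in the deposited table, which were at 0.00 and -0.01 without tumor 85. Cdc20, which activates the ubiquitin ligase that ends mitosis, was at -1.55, -1.19 and -1.26 in the mammary sarcomatoid tumors 323, 307 and 594, -1.67 and -0.86 in lung tumors 323 and 307, and -0.88, -2.0, -1.36, -0.97 and -0.20 in adenocarcinomas 105, 131, 470, 17 and 85. Tumor 85 was the highest and 131 the lowest, with a difference of -0.22 (SE 0.33, adjusted p = 0.885). Ube2c, the ubiquitin-conjugating enzyme of that ligase, had -1.71, -1.37 and -1.59 in the mammary sarcomatoid tumors 323, 307 and 594, -1.22 and -1.69 in lung tumors 323 and 307, and -1.75, -1.64, -1.85, -0.80 and 0.04 in adenocarcinomas 105, 131, 470, 17 and 85. All tumors but 17 and 85 lay between -1.85 and -1.22, and the difference was -0.32 (SE 0.36, adjusted p = 0.84).

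Among the 7 genes of the spindle and of cytokinesis, differences ran from -0.21 (Nusap1) to 0.32 (Kif23). Kif20a, a kinesin of the central spindle, was at -0.36, -0.33 and -0.38 in the mammary sarcomatoid tumors 323, 307 and 594, -0.14 and -1.01 in lung tumors 323 and 307, and -1.54, -1.47, -0.92, 0.21 and 0.75 in adenocarcinomas 105, 131, 470, 17 and 85. Adenocarcinomas held both ends, 85 and 17 the highest and 105 and 131 below every sarcomatoid tumor, with a difference of 0.15 (SE 0.44, adjusted p = 0.947) that was -0.09 without 105 and 0.49 without 85. Kif23, another kinesin of cytokinesis, had -0.37, -0.35 and -0.45 in the mammary sarcomatoid tumors 323, 307 and 594, 0.03 and -0.29 in lung tumors 323 and 307, and -0.46, -2.13, -0.78, 0.47 and -0.12 in adenocarcinomas 105, 131, 470, 17 and 85. Tumor 131 stood alone at the low end, and the difference was 0.32 (SE 0.41, adjusted p = 0.864) with it and -0.06 without it. The other members were Kif11 at -0.11, Prc1 at 0.18, Tpx2 at 0.07 and Racgap1 at -0.11, the first a motor that separates the spindle poles and the second a bundler of spindle microtubules.

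Of the 5 centromere and chromosome genes, Cenpe had the brightest probe of this role, and its difference was the largest of the 43 genes. Cenpe, a kinesin at the kinetochore (probe at chr3:135067767-135067826, mm7), was at -0.48, -0.43 and -0.23 in the mammary sarcomatoid tumors 323, 307 and 594, 0.08 and -0.37 in lung tumors 323 and 307, and -0.65, -2.28, -0.63, -0.42 and -0.74 in adenocarcinomas 105, 131, 470, 17 and 85. The 4 adenocarcinomas other than 131 lay between -0.74 and -0.42, and the sarcomatoid tumors between -0.48 and 0.08, so that both groups overlapped only through tumor 17. The difference was 0.66 (SE 0.35, adjusted p = 0.592), or 1.58-fold, from -0.29 ± 0.22 in sarcomatoid tumors and -0.94 ± 0.76 in adenocarcinomas (SD, n = 5 each), and without tumor 131 it was 0.32. Mki67, the gene of the Ki-67 antigen used in pathology to score dividing cells, differed by -0.02 (SE 0.27, adjusted p = 0.989), from -1.30 ± 0.11 in sarcomatoid tumors and -1.28 ± 0.50 in adenocarcinomas (SD, n = 5 each). Its means were nearly equal, and its SD was several times larger in adenocarcinomas. Top2a, the topoisomerase that untangles chromosomes, differed by 0.28, the centromeric histone gene Cenpa by 0.18 and Cenpf by -0.14.

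Foxm1, the forkhead factor of mitotic genes (probe at chr6:128398004-128398063, mm7), had the most negative difference. It was at -2.12, -1.72 and -1.52 in the mammary sarcomatoid tumors 323, 307 and 594, -0.37 and -0.98 in lung tumors 323 and 307, and -1.04, -1.21, -2.05, -0.36 and 0.61 in adenocarcinomas 105, 131, 470, 17 and 85. Tumor 85 was the highest, and tumor 17 and lung tumor 323 came next. The difference was -0.53 (SE 0.48, adjusted p = 0.785). It was -0.18 without tumor 85, -0.22 with scan batch as a term and -0.98 in mammary tumors alone. Mybl2, the gene of B-Myb, differed by -0.18.

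Probes of 1 gene did not always have the same sign. Of the 43 genes, 21 had 26 further probes, of which 22 correlated with the chosen probe at r above 0.5 over the tumors and 7 had the opposite sign of difference. Of these 7, 6 were well above background on fewer than 10 arrays, such as a second Mcm4 probe that was well above background on 0 arrays (-0.29). The second Ccne1 probe was well above background on all 10 and differed by 0.23. Both further Cenpe probes had differences close to that of the chosen one (0.73 and 0.61), as had the brighter of both further Tyms probes (0.54).

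The lung tumors did not differ from the mammary sarcomatoid tumors in any proliferation gene past the threshold. Among the 40196 probes, 10 passed (0.0249%), and of the 43 members 0 passed. At an unadjusted p below 0.05 there was 1 member, Ccna2, against 10.7% of probes (4294). Ccna2 (probe at chr3:36375837-36375896, mm7) had log2 ratios of -1.34, -0.80 and -0.87 in the mammary sarcomatoid tumors 323, 307 and 594, 0.74 and -0.30 in lung tumors 323 and 307, and -1.31, -1.37, -1.24, -0.19 and -0.28 in adenocarcinomas 105, 131, 470, 17 and 85. Lung tumor 323 was the highest of the 10 tumors and lung tumor 307 was above all 3 mammary sarcomatoid tumors, with a difference, lung minus mammary, of 1.23 (SE 0.49, adjusted p = 0.422). The transcription factors followed, Foxm1 with 1.11 (SE 0.64, adjusted p = 0.566) and Mybl2 with 0.80 (SE 0.43, adjusted p = 0.539), the latter close to Cdc6 with 0.80 (SE 0.58, adjusted p = 0.659). Bub1 had the most negative, -0.81 (SE 0.57, adjusted p = 0.645). The median was -0.03 over replication genes, with 8 of 16 positive, and 0.10 over mitosis genes, with 19 of 27 positive, beside 0.026 and 51.6% over all probes. Site and scan batch could be separated only through the adenocarcinomas, since both lung tumors were in the third batch and no mammary sarcomatoid tumor was. With scan batch as a term the medians were -0.31 and -0.56, and 33 of 43 members were negative.

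The lung tumor was higher than the mammary one in pair 323, while in pair 307 the difference was small and slightly negative. In tumor 323 the lung tumor was higher for 11 of 16 replication and 23 of 27 mitosis genes, with mean differences of 0.63 and 0.62. In tumor 307 the lung tumor was higher for 6 of 16 and 11 of 27, with mean differences of -0.12 and -0.15. With loess on the scanner files the means were 0.66 and 0.61 in tumor 323 and -0.06 and -0.05 in tumor 307, and with median centring 1.04 and 1.01, and -0.27 and -0.26. Of all probes, 50.9% were higher in the lung in tumor 323 and 49.0% in tumor 307. With 1 array per tumor there is no test of this contrast. The mammary tumor 323 was the only array of the first scan batch, so the pair crosses batches 1 and 3, and the pair 307 crosses batches 2 and 3.

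**Figure D4:**
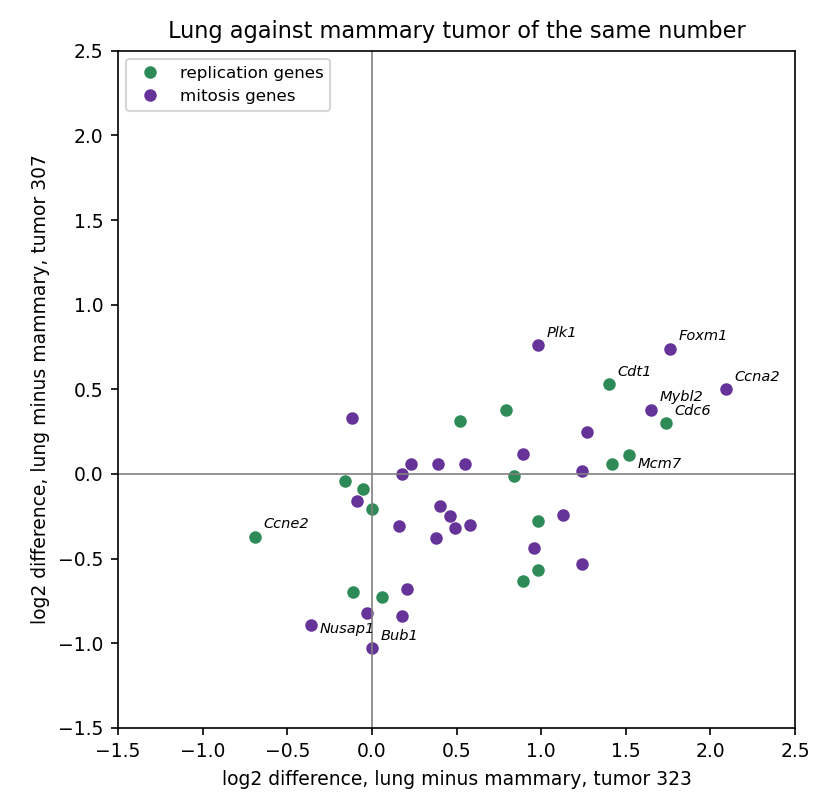
Log2 difference, lung minus mammary, in tumor 323 (horizontal axis) and tumor 307 (vertical axis) of each replication and mitosis gene, from 1 array per tumor. Most points lie right of 0 for tumor 323, while more lie below than above 0 for tumor 307. Ccna2 and Foxm1 are above 0 in both.

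In the plot of both pairs, Ccna2 was higher in the lung by 2.09 in tumor 323 and by 0.50 in tumor 307, and Foxm1 by 1.76 and 0.74. Plk1, a mitotic kinase, was higher by 0.98 and 0.76. Of all mitosis genes, 23 of 27 were higher in the lung in tumor 323 but only 11 of 27 in tumor 307. Bub1 did not differ in tumor 323 (0.00) and was lower by 1.03 on the log2 scale in tumor 307 (-1.03). Ccne2 was lower in the lung in both, at -0.69 and -0.37.

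Across the 10 tumors the mitosis genes had a higher median correlation among themselves than the replication genes. Over 351 pairs of mitosis genes the median Pearson r of the log2 ratios was 0.65, with 78.6% of pairs above 0.5. Over 120 pairs of replication genes it was 0.41, with 40.0% above 0.5, and between both sets (432 pairs) it was 0.50. Of the members with the 11801 other genes well above background on all arrays, the median r was 0.03, with 10.6% above 0.5. These values describe 10 tumors that share scan batches, slides and in 2 cases a tumor of origin. The mitosis median was 0.58 without tumor 85 and 0.53 without 85 and 131, and the replication median was 0.26 without 131. The means of both sets had r = 0.88.

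**Figure D5:**
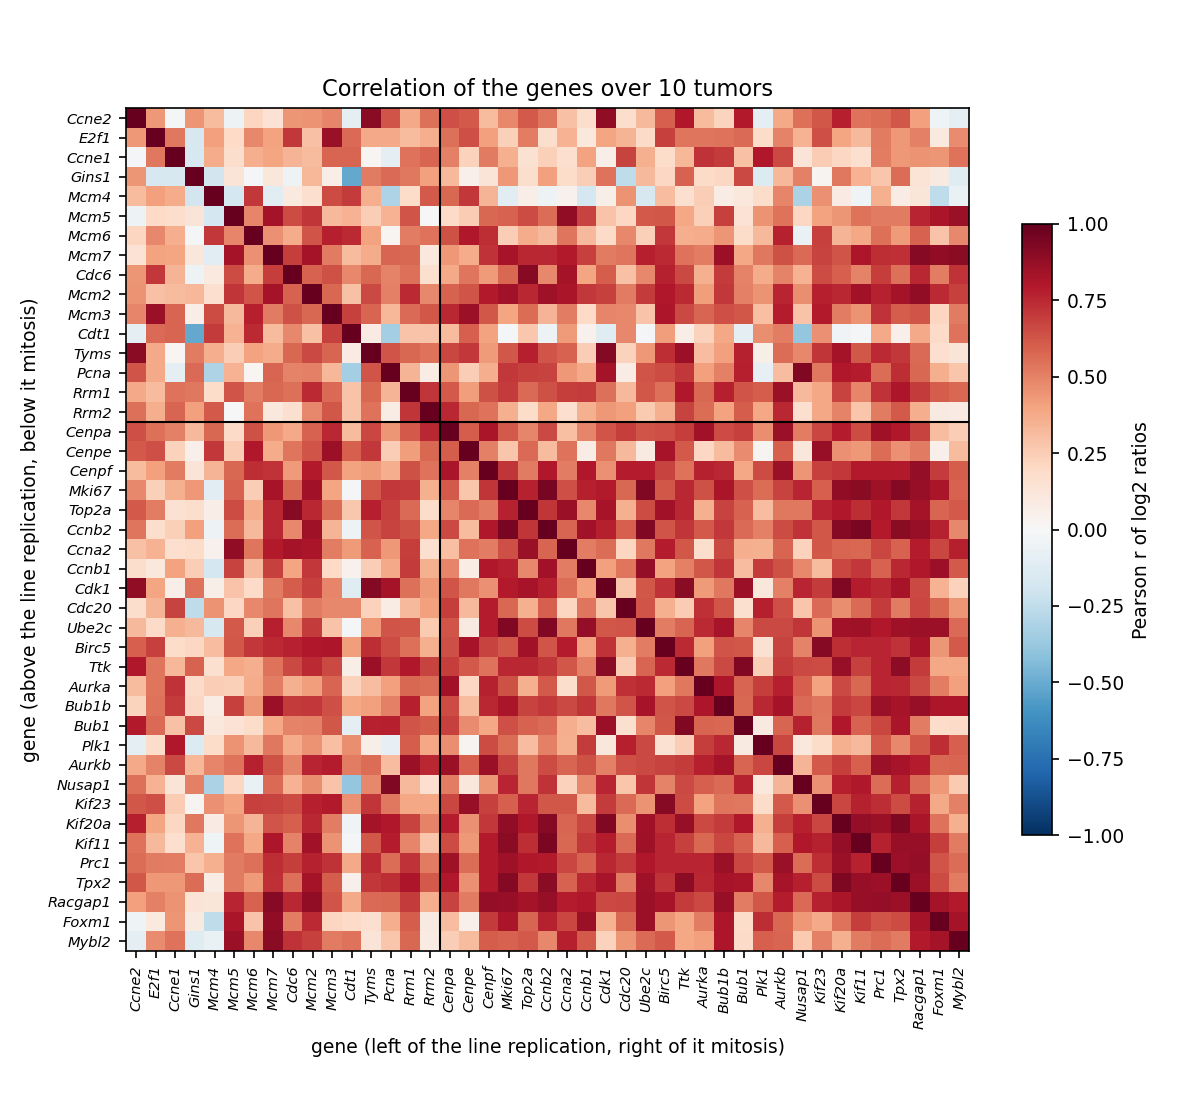
Pearson r of log2 ratios over 10 tumors (colour) between each pair of 43 proliferation genes, replication genes above and left of the lines. The block of mitosis genes at the lower right is red nearly throughout (median r 0.65), while the replication block is mixed (median r 0.41), with Gins1, Mcm4 and Cdt1 palest.

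Within the mitosis genes, Racgap1 (r = 0.96), which regulates cytokinesis, Tpx2 (0.94), a spindle assembly factor, and Prc1 (0.93) followed the mean of the other mitosis genes most closely, and Cenpe (0.51) and Plk1 (0.55) least. Some replication genes followed the mitosis mean more closely than that of the other replication genes. Mcm2 had r = 0.89 with the mitosis mean and 0.78 with the other replication genes, and Mcm7 had 0.85 and 0.60. Gins1 (0.31 and 0.17), Cdt1 (0.28 and 0.49) and Mcm4 (0.17 and 0.43) followed neither closely. Some mitosis genes, in turn, followed the replication mean more closely than that of the other mitosis genes. Cenpe had r = 0.82 with the replication mean and 0.51 with the other mitosis genes, and Aurkb had 0.89 and 0.83. Birc5, Kif23, Bub1, Ttk, Cenpa and Ccna2 were likewise closer to the replication mean.

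The 10 genes outside the set whose log2 ratios were most like the mitosis mean, of 11801 ranked, were Aspm (r = 0.97), Mxd3 (0.95), Ndc80 (0.94), 2700099C18Rik (0.93), Exo1, Zcchc8 and Chaf1a (0.92 each), Chtf18 and Spc24 (0.91 each) and Phf19 (0.90). Aspm acts at spindle poles, Ndc80 and Spc24 are parts of the kinetochore complex that binds microtubules, Chaf1a assembles chromatin on new DNA, and Exo1 is a nuclease of DNA repair.

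Genes of the same pathways outside the set gave a similar order of tumors. The mean of 56 other mitosis genes ran from -1.45 in tumor 131 to -0.03 in tumor 85 and had r = 0.99 with that of the 27 members. The mean of 38 other replication genes ran from -1.31 in tumor 131 to -0.22 in tumor 17 and had r = 0.89 with that of the 16 members. Between sarcomatoid tumors and adenocarcinomas 0 of these 38 and 0 of these 56 passed the threshold, and the medians were 0.17 and -0.06, with 30 of 38 and 25 of 56 positive. The extremes among the replication genes were Gins2, the partner of Gins1 in the helicase, at 0.72 (SE 0.27, adjusted p = 0.461), Pola1 at 0.60, Pold2 at -0.36 and Ung, which removes uracil from DNA, at -0.53. Among the mitosis genes they were Nuf2 (0.72) and Smc4 (0.68), and Depdc1b (-0.82) and the condensin gene Ncapd2 (-0.92). Lung against mammary, 0 of both lists passed either.

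Of 19 cyclins, kinases and inhibitors of G1 phase, 0 passed the threshold in either comparison. Sarcomatoid minus adenocarcinoma, the largest differences were those of the Cdk inhibitors Cdkn2b (1.24, SE 0.56, adjusted p = 0.531) and Cdkn2a (1.02, SE 0.44, adjusted p = 0.513), and the most negative those of Cdkn1b (-0.52), another inhibitor, and E2f3 (-0.43). Lung minus mammary, the inhibitors Cdkn1c (2.38, SE 0.88, adjusted p = 0.395) and Cdkn1a (0.90) were at one end and Ccnd2 (-1.19) and Cdkn1b (-1.03) at the other. The median over the 19 was 0.16 in the first comparison and 0.29 in the second.

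The means of 10 lists of cell type markers were set beside the mitosis mean. Over 10 tumors r ran from -0.38 (5 B cell markers) to 0.52 (8 lung epithelium markers), with 0.11 for 14 epithelial, -0.32 for 10 fibroblast and mesenchymal and -0.07 for 10 myeloid markers. Myeloid markers were at 2.39 to 3.40 in sarcomatoid tumors and 0.29 to 2.77 in adenocarcinomas, and the fibroblast and mesenchymal markers at -0.75 to 2.37 and -1.55 to 2.37. Skeletal muscle markers were high in tumors 105 (5.36), 470 (3.63) and 594 (2.96) and at most 0.84 elsewhere. Of the 8 lung epithelium markers, Sftpa1 was well above background on 0 arrays and the other lists had no such gene. Both lists at the ends of r were dim, with 1 of 5 B cell and 1 of 8 lung epithelium markers well above background on all 10 arrays. Of the epithelial markers 11 of 14 were, and of the myeloid markers 10 of 10. The part of other cells in the levels of the proliferation genes was not tested.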

How the data were processed

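RNA of 10 tumors was hybridised to 2-colour Agilent arrays. Spot intensity, as deposited in the scanner files, comes from Feature Extraction (versions 10.7.3.1, 11.0.1.1 and 11.5.1.1 per the file headers), as does the deposited log10 ratio of each spot, red to green, and the deposited log2 table of 40196 probes was normalized by the authors with limma. Its steps are not given in the sources used here. Each column followed its own array's red over green log ratio (r 0.868 to 0.926, at most 0.744 with another), and all 10 columns correlated positively (r 0.414 to 0.772).

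The members and lists were chosen with earlier results of these data known. Probes carry mm7 positions in the files and were named by symbol (24114), accession (5009) or synonym (3033), and 8040 stayed unnamed. Log2 ratios of the deposited table were fitted with limma 3.58.1 in R 4.3.3 (lmFit, eBayes, two-sided, Benjamini-Hochberg over all probes, threshold 0.05), sarcomatoid against adenocarcinoma with group as the only term, and lung against mammary in 3 groups, where the adenocarcinomas add to the spread. All probes entered, the number of arrays limits the precision, and labels do not say whether tumors came from separate animals, so p-values measure the spread between these samples. Lists were described by counts and medians, correlations without a p. For each role, the brightest member and the one with the largest difference are given in every tumor, and of other lists the 2 largest differences each way. Scripts were tested on simulated data. Alternatives were normexp (offset 50) with loess or median centring, loess without background correction, a filter on dim probes (well above background on 5 or more arrays), the mean of all probes, scan batch, slide and tumor number as terms, mammary tumors alone, 1 value per tumor number and leaving out each array. Runs without tumors 85, 131 and 17 and counts below the reference by scaling were added after seeing the data. Lung and mammary tumors of 1 number share an origin through the labels and methods (r of their deviations 0.153 for tumor 323 and 0.03 for tumor 307), and replicate numbers, given in deposit order, pair nothing.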

Additional observations from a re-analysis of the deposited data

Results flagged for a closer look

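In groups of 5 tumors, a tumor was noted when its gap to the next was over 0.71 of the group's range. Among 90 combinations of a gene or list mean with a group, 8 were noted, where chance gives about 4.5. Adenocarcinoma 85 was high in 3 genes, Ccnb1 (0.50, the others -1.17 to -0.76), Plk1 (0.05, the others -1.77 to -1.46) and Rrm1 (-0.46, the others -1.43 to -1.23). Adenocarcinoma 131 was low in Mcm3 (-3.01, the others -1.70 to -1.17) and Cenpe (-2.28, the others -0.74 to -0.42). Lung tumor 307 was low among the sarcomatoid tumors in Pcna (-0.76, the others -0.16 to 0.04) and Kif20a (-1.01, the others -0.38 to -0.14). Sarcomatoid tumor 594 was high in Rrm2, the gene of a ribonucleotide reductase subunit (-0.14, the others -1.65 to -1.27). No reason for these gaps was tested.

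Lung minus mammary, the mean of the replication genes differed by 0.63 in tumor 323 and by -0.12 in tumor 307, and that of the mitosis genes by 0.62 and -0.15. The signs were opposite in the 2 pairs, with the tumor 307 values at -0.06 and -0.05 with loess on the scanner files, and with 1 array per tumor the difference between the pairs was not tested.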

How the results depend on the processing

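Between sarcomatoid tumors and adenocarcinomas, 1 probe passed with median centring, 2 with 1 value per tumor number and 0 to 618 when each array was left out (618 without tumor 470), and under all alternatives 0 members passed. When each array was left out, the medians of that comparison ran from 0.03 (without 131) to 0.39 (without 85) for replication and from -0.14 to 0.18 for mitosis, with the sign of the mitosis median not settled. Of the 43 members, 0 to 10 took the other sign, 10 without tumor 85, 8 without 131 and 8 with scan batch as a term.

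Lung against mammary, 10 probes passed in the deposited table, 2 with normexp and loess, 3 with median centring, 3 without background correction, 0 with scan batch as a term and 0 with the tumor number as a replicate block (5336 at an unadjusted p below 0.05, in limma). Leaving out each array gave 0 to 84 (84 without tumor 470). The replication median was -0.31 with scan batch as a term, 0.28 with the replicate block and -0.14 to 0.28 when each array was left out (0.28 without 594). The mitosis median was -0.56 with scan batch, 0.14 with the block and -0.13 to 0.37 when each array was left out (0.37 without lung tumor 307). With the block, lung and mammary arrays are compared within a tumor number, so its difference rests on the pairs 323 and 307 alone. Tumor 594 has no lung partner and adds nothing to that difference. Of the members, 0 passed without the block and 0 with it. So few arrays leave the block fit little power, and its counts of passing probes and members cannot show whether a call holds. The cause of the moves in these counts and medians was not tested. In the first comparison, the tumor number as a random replicate block left the medians at 0.21 and -0.02. The correlation estimated within a tumor number was -0.03, so that fit hardly differs from the fit without the block.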
